A study of Mus musculus with 6 samples.

Results

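The keratin genes of newborn mouse ovary were compared between animals lacking both Sohlh1 and Sohlh2 and wildtype animals. Members were all genes whose symbol on the array begins with Krt and a digit, without the Krtap and Krtcap genes. This gave 49 of the 19057 genes with a single symbol on the array, and 66 of its 45281 probes. The gene table holds 54 such genes, and Krt32, Krt36, Krt74, Krt81 and Krt83 have no probe named for them here. Symbols alone decided membership, but the family was taken up with the rise of Krt84 in these arrays already known, so the change of Krt84 is given as a description with no test.

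Total RNA from whole ovary was hybridised to Illumina MouseWG-6 BeadChips. The groups were 4 arrays of Sohlh1/Sohlh2 double KO ovary, numbered 1, 2, 3 and 5, and 2 arrays of wildtype ovary, numbered 2 and 3. All animals were newborn and of the mixed strain C57BL/6/129S6/SvEv, and all 6 arrays lay on 1 slide. Both deleted genes code for germ line factors of the basic helix-loop-helix class. No label tells separate animals from pools or littermates, and the p-values cover the spread among these 6 samples alone, which may be technical.

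Keratins are the intermediate filament proteins of epithelia. A type I keratin pairs with a type II keratin, and the mix of pairs differs between simple epithelia, stratified epithelia, the inner root sheath of the hair follicle, and hair, nail and tongue papillae, whose keratins are the hair or hard keratins. In the ovary the simple keratins Krt7, Krt8, Krt18 and Krt19 are known from the surface epithelium and from cells around the germ cells, while hair keratins have no well known role there. In the mouse the type I genes lie together on chromosome 11 and the type II genes on chromosome 15, where the type I gene Krt18 also lies.

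Individual hair keratins differed in both directions in the double knockout. The type II gene Krt84, a hard keratin of tongue papillae, hair and nail, was higher in the double-knockout ovaries by 2.77 on the log2 scale (6.84-fold), or by 1.92 without background correction. The neighbouring type I genes Krt33b and Krt34, keratins of the hair shaft, were detected on both wildtype arrays and on none of the 4 double-knockout arrays, and were at least 2.22-fold and 2.03-fold lower under every setting that gave a bound. Krt31, the next gene along, went the same way by a smaller amount, and Krt17, a type I keratin of hair follicles and wounded skin, was 2.13-fold lower. The calls of Krt31 and Krt17 ended under some settings, among them the fit without double-knockout array 1. The simple keratins Krt8, Krt18 and Krt19 were detected on every array, with differences of 0.15 or less on the log2 scale that did not pass the test. The other simple keratins differed more, Krt7 by -0.57 and Krt20 by 0.50, which did not pass, and Krt23 by 0.49, which passed. The call of Krt23 ended when any array was left out.

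The stretches around the starts of the 4 hair keratin genes are shown because these genes lie in 2 separate clusters and moved in opposite directions. Each is the RefSeq window on GRCm38.p6 from 250 bases before to 50 bases after the start, read 5′ to 3′ on the minus strand. The windows are chr15:101532771-101533070 for Krt84, chr11:100029819-100030118 for Krt33b, chr11:100041505-100041804 for Krt34 and chr11:100050502-100050801 for Krt31. Capitals mark CANNTG, the E-box motif that basic helix-loop-helix factors as a class are known to bind, which reads the same on both strands.
Krt84: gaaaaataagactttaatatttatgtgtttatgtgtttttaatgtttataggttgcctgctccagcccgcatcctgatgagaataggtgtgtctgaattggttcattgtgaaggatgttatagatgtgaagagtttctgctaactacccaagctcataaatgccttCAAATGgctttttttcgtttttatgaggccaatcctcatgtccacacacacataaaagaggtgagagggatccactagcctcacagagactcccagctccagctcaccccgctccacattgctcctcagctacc
Krt33b: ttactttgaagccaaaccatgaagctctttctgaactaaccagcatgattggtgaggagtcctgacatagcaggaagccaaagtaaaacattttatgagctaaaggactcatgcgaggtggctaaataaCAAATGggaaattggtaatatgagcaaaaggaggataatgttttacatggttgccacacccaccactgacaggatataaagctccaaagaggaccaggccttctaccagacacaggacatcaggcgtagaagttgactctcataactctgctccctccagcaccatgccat
Krt34: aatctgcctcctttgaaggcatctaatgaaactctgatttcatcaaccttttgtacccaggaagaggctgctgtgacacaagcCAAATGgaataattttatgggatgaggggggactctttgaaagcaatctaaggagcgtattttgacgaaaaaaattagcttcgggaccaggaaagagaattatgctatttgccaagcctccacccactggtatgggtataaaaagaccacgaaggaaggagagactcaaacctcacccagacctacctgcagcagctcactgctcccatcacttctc
Krt31: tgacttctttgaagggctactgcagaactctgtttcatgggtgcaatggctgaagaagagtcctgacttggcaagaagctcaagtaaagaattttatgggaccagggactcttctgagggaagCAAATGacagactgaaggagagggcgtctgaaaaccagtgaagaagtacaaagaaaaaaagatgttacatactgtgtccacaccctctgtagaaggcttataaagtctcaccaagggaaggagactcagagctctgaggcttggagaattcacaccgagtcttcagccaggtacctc

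Each of the 4 windows held 1 E-box, and in all 4 it had the letters CAAATG. The distance from the first base of this motif to the start was 84 bases in Krt84, 121 in Krt33b, 167 in Krt34 and 127 in Krt31. CANNTG was found in 72.3% of the 32851 windows in the table. CAAATG, whose letters were read from these same 4 windows, was found on either strand in 13.7%. Krt33b, Krt34 and Krt31 are closely similar neighbours, so their windows are not independent. A further motif, TTTTATG, chosen after these sequences were read and searched on both strands, was found in all 4 windows and in 4.19% of all windows. In Krt33b, Krt34 and Krt31 it began 160, 155 and 159 bases before the start, and in Krt84 it began 66 bases before. Krt84 had another copy on the other strand, 34 bases before the start, where the printed strand reads CATAAAA. The core promoter motif TATAAA, whose matches overlapped no TTTTATG match in these 4 windows, began 47, 31 and 29 bases before the start in Krt33b, Krt34 and Krt31. In Krt84 its only match was on the other strand, 206 bases before the start, and 13.6% of all windows held it on either strand.

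These letters were not confined to the genes that moved. Of the 49 keratins, 34 had a window in the table, Krt13 with more than 1, giving 35 windows. CAAATG was found in 7 of these 35, and all 7 belonged to the hair keratins Krt84, Krt82, Krt31, Krt33b, Krt34, Krt39 and Krt40. These 7 were all the hair keratins with a window. Krt33a, Krt35, Krt86 and Krt87 had none and could not be searched. TTTTATG was found in the same 7 hair keratin windows and in 11 of the 35 in all. TATAAA was found in 5 of these 7 and in 18 of the 35 in all. Krt39 and Krt40 were not detected on any array and Krt82 did not pass the test. A match describes the sequence and does not show that a factor binds there.

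A probe was called detected on an array where its detection p was under 0.05, and was tested where this held on at least 2 arrays. Of the 66 keratin probes, 14 were detected on all 6 arrays. The 37 detected on none had raw signals of 40.6 to 62.2. Double-knockout arrays 1, 2, 3 and 5 detected 18, 22, 17 and 18 keratin probes, and wildtype arrays 2 and 3 detected 21 and 23. Among the 30 type I probes, 11, 14, 12 and 10 were detected in the double knockout and 15 and 16 in wildtype. Among the 35 type II probes the counts were 7, 8, 5 and 8 in the double knockout and 6 and 7 in wildtype.

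Fewer hair keratin probes were detected in the double knockout. Of their 14 probes, 1, 3, 2 and 1 were detected on the double-knockout arrays, against 5 and 6 on the wildtype arrays. The probes of the neighbouring genes Krt31, Krt33b and Krt34 were detected on both wildtype arrays and on no double-knockout array. They make up most of this difference. At a detection p under 0.01 the counts were 1, 2, 1 and 1 in the double knockout and 5 and 3 in wildtype. Over all 45281 probes, at 0.05, they were 20124 to 20331 in the double knockout and 20459 and 20594 in wildtype. The 51 epithelial probes gave 17, 19, 15 and 17 in the double knockout and 16 and 17 in wildtype. All 6 simple keratin genes were detected on every array, each with 1 probe, while 22 of the 49 keratin genes were never detected. Those 22 include Krt1 and Krt5, the type II partners of Krt10 and Krt14 in epidermis.

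**Figure D1:**
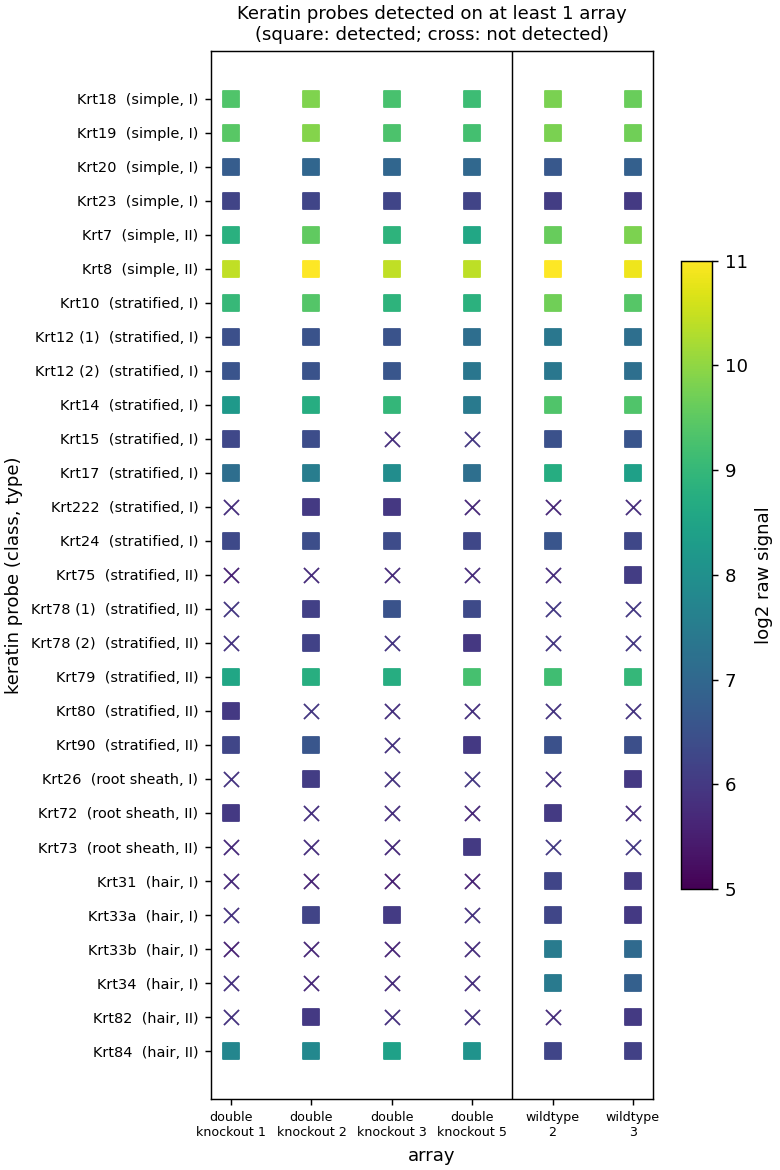
Each row is a keratin probe detected on at least 1 array, with its class and type, and each column is an array, double knockout left of wildtype. Squares are detected and crosses undetected probes, coloured by log2 raw signal; Krt31, Krt33b and Krt34 are squares on the 2 wildtype arrays and crosses on the 4 double-knockout arrays.

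Of the 49 keratin genes, 24 passed the detection filter and 25 did not. Each gene was represented by its brightest tested probe, and limma's moderated test was adjusted by Benjamini-Hochberg over all 12163 tested genes. At an adjusted p under 0.05, 4 of the 23 tested keratins other than Krt84 were lower (Krt33b, Krt34, Krt31 and Krt17), 1 was higher (Krt23) and 18 did not pass. Over all tested genes 9.42% were called, 4.06% lower and 5.36% higher. At the level of probes, adjusted over all 21981 tested, 4 of 26 keratin probes were lower and none was higher apart from that of Krt84, against 7.27% called in either direction. This count is not evidence about the family, because Krt31, Krt33b and Krt34 passed the filter only through the wildtype arrays, and Krt222 and Krt78 only through the double-knockout arrays. The 4 and 2 arrays did not overlap in 9 of the 24 keratins, against 38.1% of all tested genes.

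By type, 4 of 16 tested type I keratins were lower (Krt17, Krt31, Krt33b and Krt34), 1 was higher and 11 did not pass. Over all tested genes 4.06% were lower and 5.36% higher. The type I median log2 difference was -0.23, and -0.033 with no filter. Of the 7 tested type II keratins other than Krt84, 0 passed limma's adjusted test and 0 had an unadjusted p under 0.05, with a median of -0.05. Of the 5 tested hair keratins other than Krt84, Krt31, Krt33b and Krt34 were lower and 2 did not pass. These 3 passed the filter only through wildtype, where they were high. The counts of hair and of type I keratins therefore support nothing about the class or the type. The hair median with Krt84 was -0.39 and without it -0.64, and of 18 tested epithelial keratins 1 was lower, 1 higher and 16 did not pass (median -0.08). The median over all tested genes was 0.03 and over the tested keratins -0.12. Differences between types or classes were not tested, and the hair median rests on 6 genes and turned positive without a wildtype array, at 0.08 without array 2 and 1.21 without array 3, where Krt31, Krt33b and Krt34 no longer passed the filter.

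Krt84 had log2 levels of 7.70, 7.54, 8.23 and 7.92 in double-knockout arrays 1, 2, 3 and 5, against 5.09 and 5.05 in wildtype arrays 2 and 3. Its raw signals were 214, 224, 338 and 270 in the double knockout and 74.7 and 71.8 in wildtype. Every double-knockout array lay above both wildtype arrays, and array 3 was the highest. The mean was 7.85 ± 0.30 in the double knockout (SD, n = 4) and 5.07 ± 0.03 in wildtype (SD, n = 2), a log2 difference of 2.77 ± 0.20 (SE). The wildtype signals were detected but close to background, where detection begins at log2 levels of 4.72 to 4.73. Without background correction the difference was 1.92, and fits that left out an array gave 2.64 to 2.88.

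The measured neighbours of Krt84 did not pass the test or were not detected. The gene table places Krt82 and Krt90 on one side and Krt83 and Krt86 on the other, and Krt83 has no probe here. Krt82, a hair cuticle keratin, differed by 0.03 ± 0.16 (SE, adjusted p = 0.935, limma over all genes) and was detected on 1 array of each genotype. Its other probes were not detected. Krt90 differed by -0.37 ± 0.34 (SE, adjusted p = 0.536, limma). Krt86, a hair keratin, was not detected on any array with either of its probes, nor were Krt87, another hair keratin, and Krt88.

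Krt33b had log2 levels of 4.24, 4.33, 4.31 and 4.46 in the double-knockout arrays, against 6.89 and 6.51 in the wildtype arrays. The raw signals were 47.6, 50.7, 49.7 and 55.5 in the double knockout and 177 and 133 in wildtype. The groups did not overlap, and the double-knockout values lay below the lowest detected signals of their arrays, which were 4.74 to 4.76. The fitted difference was -2.36 ± 0.16 (SE, adjusted p = 1.33e-04, limma over all genes). It passed the filter only through wildtype, and with no filter the adjusted p of the limma fit was 0.00203. Since the gene was undetected in the double knockout, only a bound can be given. Krt33b was at least 3.86-fold lower with background correction and 2.22-fold lower without it, the wildtype mean set against the lowest detected signal of each double-knockout array.

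Krt34 had log2 levels of 4.51, 4.36, 4.40 and 4.47 in the double-knockout arrays, against 6.87 and 6.15 in the wildtype arrays. It too was at background in the double knockout, and wildtype array 2 was higher than array 3. The fitted difference was -2.08 ± 0.20 (SE, adjusted p = 5.57e-04, limma; 0.00697 with no filter). The gene was at least 3.39-fold lower with background correction and 2.03-fold lower without it. For Krt33b and Krt34, with an offset of 50 the bounds were 2.27-fold and 2.07-fold, and on the authors' normalized values 2.28-fold and 2.08-fold. Without a wildtype array neither gene passed the filter. With detection on 1 array allowed instead, Krt33b gave -2.14 without wildtype array 2 and -2.54 without array 3, Krt34 gave -1.68 and -2.42, and the adjusted p was at most 0.00653 in these fits.

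Krt31 lay near background in both genotypes, with log2 levels of 4.34, 4.30, 4.26 and 4.28 in the double-knockout arrays and 5.11 and 4.75 in the wildtype arrays. The fitted difference was -0.64 ± 0.15 (SE, adjusted p = 0.0306, limma; 0.0275 with no filter), and the bound was only 1.14-fold. Its call ended without double-knockout array 1 (adjusted p = 0.0634), 2 (0.0517) or 3 (0.0582), and with detection on 1 array allowed it ended without wildtype array 2 (0.292) or 3 (0.0502). An offset of 50 (0.0971) and scaling to the 75th percentile (0.0740) also ended it.

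Krt33a, the gene on the other side of Krt33b, did not go with these genes. It had log2 levels of 4.57, 5.20, 4.92 and 4.58 in the double-knockout arrays and 5.16 and 4.74 in the wildtype arrays, which overlap. The difference was -0.13 ± 0.22 (SE, adjusted p = 0.736, limma). Krt35, a hair shaft keratin further along, was not detected on any array. Krt31, Krt33a, Krt33b and Krt34 are closely similar genes, the probe sequences were not used here, and how far each probe reads its relatives was not tested.

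**Figure D2:**
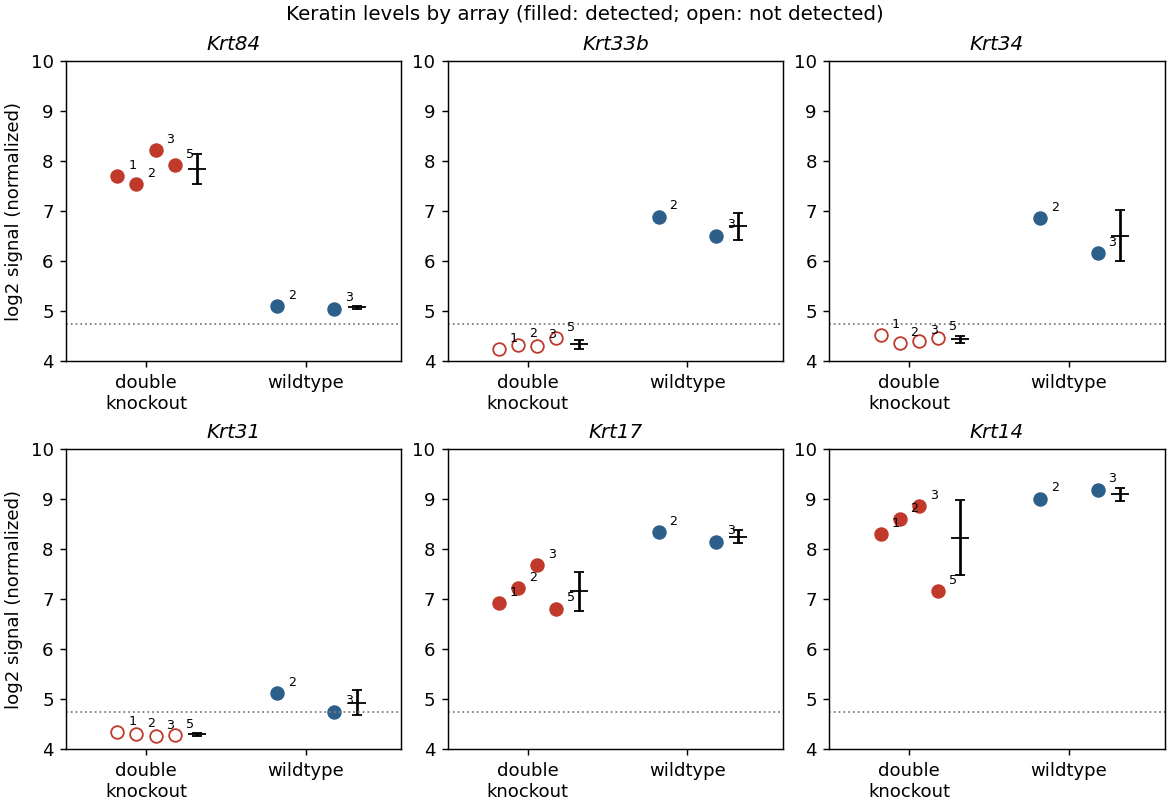
Each panel plots the normalized log2 signal of a keratin gene by array (y axis) in double knockout and wildtype (x axis), with array numbers beside the points and mean ± SD beside each group. Filled points are detected, open points undetected, and the dotted line is the mean of the lowest detected signals; Krt84 is 2.77 higher in the double knockout, while Krt33b, Krt34 and Krt31 fall below the line there.

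**Figure D3:**
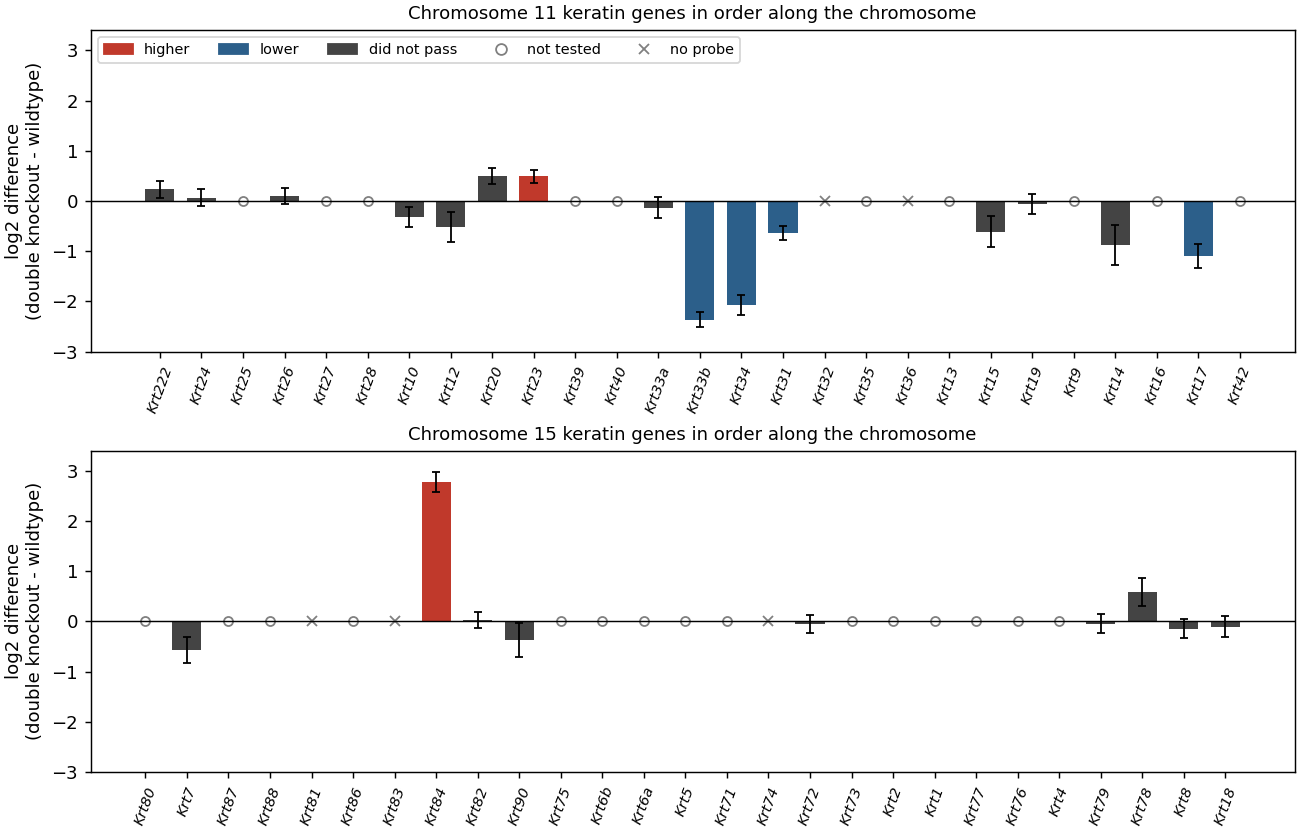
Bars give the log2 difference, double knockout minus wildtype, with its SE for each tested keratin, in gene order along chromosomes 11 (top) and 15 (bottom). Red and blue bars passed the test, except that Krt84 is a description, open circles were not tested and crosses have no probe; Krt33b, Krt34 and Krt31 stand side by side between Krt33a and Krt35, and Krt84 stands apart from its neighbours.

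Levels of germ cell markers and of markers of the cells around them differed between the same arrays. Summed over the 11 genes of the germ cell list on the array, the background-corrected signal was 4474 to 7970 in the double knockout and 17162 to 20382 in wildtype. Of 9 tested members 6 were lower and 0 higher, with a median of -1.45, and Mael and Sycp3 were undetected. Lhx8, Gdf9, Kit and Pou5f1 had the largest changes, of -3.73, -2.73, -2.31 and -2.07. Ddx4 (-0.40), Dazl (-0.27) and Nobox (-0.40) did not pass (adjusted p of 0.260, 0.475 and 0.219, limma). Dppa3 and Kit had the highest wildtype means (12.80 and 12.44 on the log2 scale) and so weigh most in the sum. Over all tested genes 4.06% were lower and 5.36% higher. The 12 pregranulosa genes on the array summed to 11840 to 13398 in the double knockout and 7024 to 9767 in wildtype, with 3 of 11 tested members higher (Gng13, Runx1 and Amhr2), 0 lower and a median of 0.43. The part of either list in the keratin changes was not tested, and in whole ovary fewer cells of a type and less RNA per cell cannot be told apart.

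Among stratified keratins, Krt17 had log2 levels of 6.93, 7.21, 7.68 and 6.81 in the double-knockout arrays, against 8.34 and 8.15 in the wildtype arrays. The groups did not overlap, and the difference was -1.09 ± 0.23 (SE, adjusted p = 0.0229, limma). The call ended without wildtype array 2 (adjusted p = 0.203) or 3 (0.0955), without double-knockout array 1 (0.0613), and with no filter on detection (0.0598), while the difference stayed between -1.26 and -0.98 in the fits that left out an array.

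Krt14, the type I keratin of basal epidermal cells, had log2 levels of 8.29, 8.60, 8.86 and 7.15 in the double-knockout arrays and 9.01 and 9.19 in the wildtype arrays. Both wildtype arrays were above all 4 double-knockout arrays, but array 5 lay far below the other 3, and the difference of -0.87 ± 0.40 (SE) did not pass (adjusted p = 0.202, limma). Krt5, the usual partner of Krt14, was not detected. Krt15, a type I keratin of basal cells and the hair bulge, had 5.50, 5.56, 4.47 and 4.69 in the double knockout, against 5.55 and 5.78 in wildtype, and was undetected on double-knockout arrays 3 and 5.

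Krt12, a type I keratin of the corneal epithelium, divided the double-knockout arrays. Its log2 levels were 6.04, 5.82, 5.93 and 7.04 in the double knockout and 6.78 and 6.67 in wildtype, so array 5 lay above both wildtype arrays and the other 3 below them. Another probe of the gene gave 5.86, 5.81, 5.81 and 6.75 in the double knockout, against 6.77 and 6.66 in wildtype. The difference over all arrays was -0.52 ± 0.31 (SE, adjusted p = 0.325, limma), and without double-knockout array 5 it was -0.80 (adjusted p = 0.0164). The same array was highest for Krt79, a keratin of the hair follicle opening, with 8.65, 8.62, 8.61 and 9.20 in the double knockout and 8.83 and 8.81 in wildtype (difference -0.05 ± 0.19 SE).

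Krt10, the type I keratin of suprabasal epidermis, differed by -0.32 ± 0.19 (SE, adjusted p = 0.334, limma), although its partner Krt1 was not detected. Krt24, detected on every array, differed by 0.07 ± 0.17 (SE). Krt78 was detected on 3 double-knockout arrays and no wildtype array by 1 of its 3 probes (0.59 ± 0.28 SE, adjusted p = 0.217, limma), and another gave 0.16. Krt222 gave 0.24 ± 0.17 (SE). Krt2, Krt4, Krt6a, Krt6b, Krt9, Krt13, Krt16, Krt42, Krt76 and Krt77 were never detected, and Krt75 and Krt80 were detected on 1 array each. Among root sheath keratins, Krt26 (0.10 ± 0.16 SE) and Krt72 (-0.05 ± 0.17 SE) were detected on 1 array of each genotype, Krt73 on 1 array only, and Krt25, Krt27, Krt28 and Krt71 on none.

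The simple keratins Krt8, Krt18 and Krt19 overlapped between the genotypes. Krt8, the type II keratin of simple epithelia, had log2 levels of 10.68, 10.95, 10.36 and 10.43 in the double knockout, against 10.76 and 10.75 in wildtype. Krt18, its type I partner, had 9.57, 9.75, 9.16 and 9.06 in the double knockout, against 9.48 and 9.51 in wildtype. Krt19, a type I keratin of duct and surface epithelia, had 9.67, 9.79, 9.22 and 9.16 in the double knockout, against 9.47 and 9.56 in wildtype. In each of these genes double-knockout array 2 was the highest of all 6 and double-knockout arrays 3 and 5 the lowest. The differences were -0.15 ± 0.18, -0.11 ± 0.21 and -0.06 ± 0.20 (SE), with adjusted p-values of 0.656, 0.775 and 0.889 (limma), and fits with other settings gave between -0.26 and 0.21. Another Krt8 probe was not detected on any array.

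Krt7, a type II keratin of glandular and duct epithelia, had log2 levels of 8.96, 9.46, 8.77 and 8.46 in the double knockout, against 9.28 and 9.70 in wildtype. Its difference of -0.57 ± 0.26 (SE) did not pass (adjusted p = 0.199, limma), and double-knockout array 2 lay between the wildtype arrays. Krt20, a type I keratin of gut and bladder lining, had 6.32, 6.45, 6.46 and 6.57 in the double knockout, against 5.76 and 6.15 in wildtype (0.50 ± 0.16 SE, adjusted p = 0.0831, limma). Krt23, a type I keratin, had 5.34, 5.25, 5.28 and 5.25 in the double knockout, against 4.83 and 4.75 in wildtype. It was 1.40-fold higher (0.49 ± 0.13 SE, adjusted p = 0.0473, limma), but adjusted over all 21981 tested probes its p was 0.0542, and leaving out any of the 6 arrays ended the call (adjusted p of 0.0654 to 0.229). The difference was 0.24 without background correction (adjusted p = 0.134, limma), 0.24 with an offset of 50 (0.110) and 0.26 on the authors' values (0.113).

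**Figure D4:**
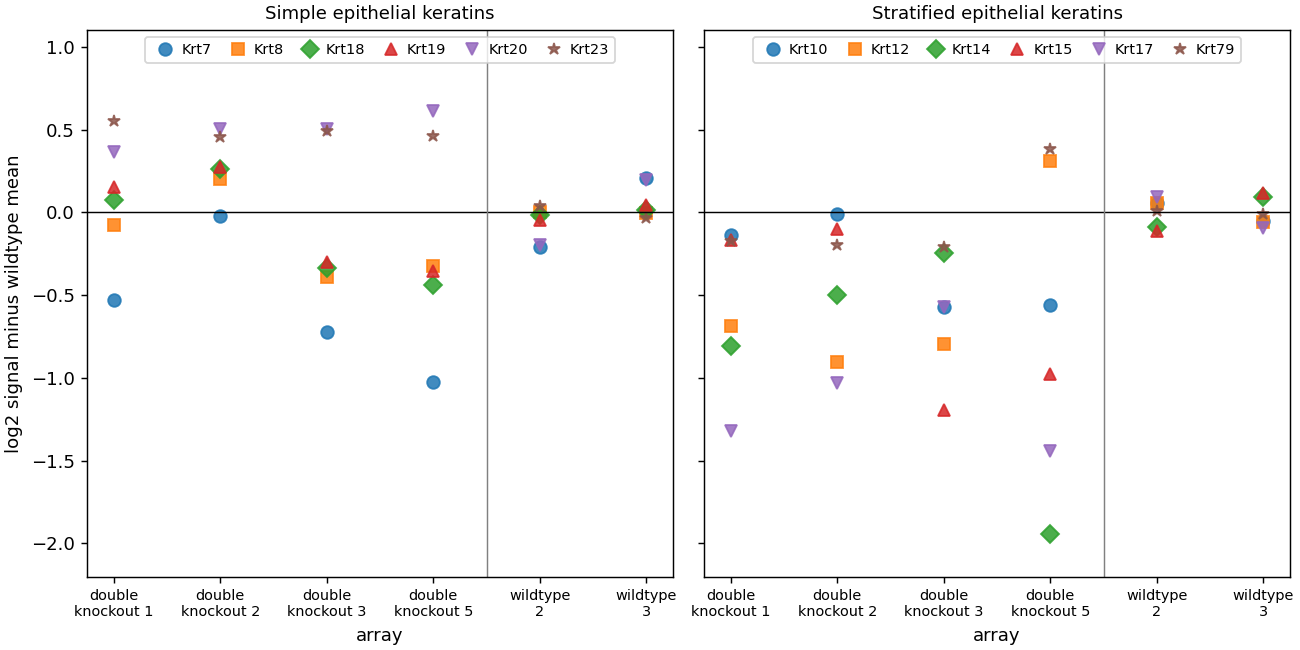
Points give the log2 signal of each keratin on each array minus that gene's wildtype mean (y axis), for 6 simple (left) and 6 stratified (right) epithelial keratins, with double-knockout arrays left of wildtype arrays. Krt8, Krt18 and Krt19 lie near or above 0 on double-knockout arrays 1 and 2 and below 0 on arrays 3 and 5, and Krt12 and Krt79 are highest on array 5.

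Markers of other epithelia that the dissected ovary could hold are given beside the simple keratins. The 12 genes on the array known from the oviduct, mesonephric ducts and rete summed to 1375, 1171, 655 and 688 in double-knockout arrays 1, 2, 3 and 5, against 1502 and 1969 in wildtype. Of 9 tested, 2 were lower (Cldn4, a claudin, -1.25, and Cdh16, a kidney-type cadherin, -1.06) and 0 higher, while Emx2, Epcam and Pax2 were undetected. The 13 surface epithelium genes on the array, among them Krt7, Krt8, Krt18 and Krt19, summed to 5564 to 8285 in the double knockout and 7554 to 8665 in wildtype. Without these keratins the 9 others summed to 3723, 3911, 3045 and 2791 in double-knockout arrays 1, 2, 3 and 5, against 3845 and 4689 in wildtype, a sum added after the values were seen. Of 12 tested, 1 was lower (Gpm6a, a membrane glycoprotein, undetected in the double knockout), 0 were higher and the median was -0.37. Gpm6a passed the filter only through the wildtype arrays, so this count supports nothing about the list. Over all tested genes 4.06% were lower and 5.36% higher. The part of these cells in the keratin levels was not tested.

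Of the genes that define epidermis, Krt1, Krt5, Dsc3, Dsg3, Perp and Sfn were undetected on all arrays. The 13 genes of that list summed to 1622 to 1858 in the double knockout and 2808 to 3086 in wildtype. Without its keratins the sums were 724 to 1241 in the double knockout and 1590 to 1899 in wildtype. Trp63 made up most of each of these sums, with mean log2 levels of 9.34 in the double knockout and 10.57 in wildtype. Col17a1, the next brightest tested member, had 7.29 and 7.32. The sums therefore say little about the rest of the list. Of 7 tested members 1 was lower, Trp63, against 4.06% lower over all tested genes. The 4 tested members other than keratins had a median of 0.06. Ly6d differed by 0.40, Dsg1a by 0.15 and Col17a1 by -0.03, and these did not pass. Trp63, a transcription factor of stratified epithelia and of oocytes, had log2 levels of 9.42, 8.95, 8.99 and 9.98 in the double knockout, against 10.74 and 10.40 in wildtype (-1.23 ± 0.28 SE, adjusted p = 0.0281, limma). Its part in the levels of Krt14 and Krt17 was not tested.

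Other genes of the keratin system were counted in lists chosen by function. Over all tested genes 4.06% were lower and 5.36% higher. Of 13 tested epithelial regulators, 3 were lower and 2 higher, with a median of -0.13. Besides Trp63, the splicing regulator Esrp1 (-2.34) and the zinc finger factor Ovol1 (-1.88) were lower, and Grhl2, a grainyhead factor (0.98), was higher, as was Esrp2, a relative of Esrp1, named after its value was seen. Of 4 tested hair follicle regulators, Gata3, a transcription factor of the inner root sheath, was higher (0.80 ± 0.15 SE, adjusted p = 0.0120, limma), 0 were lower and the list median was 0.33. Foxn1, Msx2, Padi3 and S100a3, which are known from hair formation, were undetected, as was Edar.

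Of 4 tested cornified envelope genes, Cdsn, the corneodesmosin of cornifying cells, was higher (1.35 ± 0.14 SE, adjusted p = 7.05e-04, limma), 0 were lower and the median was 0.02, while Ivl, Tgm3, Cnfn and others were undetected. Of 12 tested desmosome and plakin genes, which anchor keratin filaments, Dst was lower (-0.57 ± 0.14 SE), 0 were higher and the median was -0.09. Over all tested genes 9.42% were called. Jup, Dsc1, Dsc2, Dsc3, Dsg1b, Dsg1c and Dsg3 were undetected. Of 13 tested intermediate filament genes outside the keratins, 2 were lower, 0 were higher and the median was -0.14. The lower genes were Nefm (-1.75 ± 0.23 SE) and Ina, which was undetected in the double knockout. Both encode filament proteins of neurons. Ina passed the filter only through the wildtype arrays, so its call supports nothing about the list.

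The double-knockout arrays detected 20124 to 20331 probes and the wildtype arrays 20459 and 20594. Sohlh1 had log2 levels of 9.39 to 9.80 in the double knockout and 12.88 and 13.01 in wildtype on its brighter probe, and the Sohlh2 probe was detected on 1 wildtype array only. Precision is limited by having 4 and 2 arrays, with which the smallest two-sided p of an exact permutation test is 0.0667.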

How the data were processed

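Keratin probes were taken from Illumina MouseWG-6 arrays of 4 double-knockout and 2 wildtype newborn ovaries. The authors deposited raw signal intensity per probe, neither background-subtracted nor normalized as the values show, and the submitters' processing notes name GenomeStudio without its version. Beside it the authors deposited a detection score that is highest for bright probes, so 1 minus the score was used as detection p. The authors also deposited a table of intensity values, linear and quantile normalized, with column medians of 59.5 to 59.6, that run in the same direction as the raw signals and are not centred. The authors' step between them is not given in the sources used here.

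For this report nec (limma 3.58.1, R 4.3.3) estimated and removed background by normexp using those detection values, 16 was added, and arrays were quantile normalized on the log2 scale. The 21981 probes with detection p under 0.05 on at least 2 arrays were fitted with lmFit and eBayes, with no covariate. Each gene was represented by its brightest tested probe, and Benjamini-Hochberg adjustment ran over 12163 genes at 0.05. Names came from the platform annotation (34885 probes with 1 symbol, 18 with several, 10378 unnamed here); the 66 keratin probes matched the GRCm38.p6 gene table, used for gene order only. A gene undetected in a whole group has a bound against the lowest detected signal. Named genes were Krt84, keratins called or detected on all arrays, the brightest of other classes, and per list up to 4 called genes or the 2 brightest; keratins outside this rule are named to account for every member. The members, classes and lists were chosen with earlier results of these data known. The fit was tested on simulated data, and the alternatives are in the closing section.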

Additional observations from a re-analysis of the deposited data

Results flagged for a closer look

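Among the named keratins, Krt79 had a double-knockout array far from the others. Array 5 stood at 9.20 against 8.61 to 8.65 on arrays 1, 2 and 3, and its gap to the nearest of them was 0.932 of the range of the 4 arrays, above Dixon's critical value for 4 values. Wildtype arrays were at 8.83 and 8.81. Chance flags about 1 in 20 such groups, and 18 keratins were examined.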

How the results depend on the processing

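Krt84 kept its direction under 16 planned and 2 added alternatives, and Krt33b and Krt34 kept their calls in every fit that tested them. Without wildtype array 2 or 3 they dropped out of the filter, so detection on 1 array was allowed in fits chosen after seeing the data, in which the lone wildtype array is assumed to vary like the others. With detection on 1 array allowed, 201 genes were called when wildtype array 2 was left out and 439 when array 3 was, and the type II median was -0.14 in the first and the hair median -0.57 in the second. With an array left out under the planned filter, the count of called genes ran from 189 (without wildtype array 2) to 1056. It was 372 for wildtype array 3 and 655 for double-knockout array 1, against 1146 with all arrays. Called keratin genes and called keratin probes each ran from 1 (with a wildtype array removed; genes numbered 3 without double-knockout array 1) to 6. The replicate numbers of titles and descriptions differ and gave correlations of deviations of -0.111 to 0.105, so they were not taken to pair samples; with a replicate block by titles 653 genes and 4 keratins were called, and by descriptions 879 and 5. The hair median was -0.17 with an offset of 50, -0.25 with 75th percentile scaling, -0.055 with no filter, -1.10 with detection p under 0.01 and -0.64 to 1.21 with an array left out. The type I median was -0.033 with no filter, -0.070 with the replicate block by descriptions and -0.41 to -0.10 with an array left out. That block gave medians of 0.065 for all keratins, 0.084 for type II and 0.10 for epithelial keratins, and left-out arrays gave -0.26 to -0.067 for all keratins and -0.15 to -0.0078 for type II. Signs turned only in genes that did not pass. With an array left out, the range was -0.23 to 0.00040 for Krt18, -0.17 to 0.043 for Krt19, -0.19 to 0.0062 for Krt79, -0.15 to 0.28 for Krt24, -0.016 to 0.15 for Krt26 and -0.21 to 0.012 for Krt72, and up to 0.22 and 0.10 with detection on 1 array allowed. The replicate block by descriptions gave 0.17 for Krt18, 0.21 for Krt19, 0.063 for Krt8 and 0.068 for Krt72, and 75th percentile scaling gave 0.11 for Krt72. The block by titles also ended the call of Krt17 (-0.80, adjusted p = 0.0818, limma). Both blocks ended the calls of Krt31 (adjusted p = 0.114 by titles and 0.0888 by descriptions, limma) and Krt23 (0.236 and 0.134). Both gave a call for Krt12 (adjusted p = 0.0441 by titles and 0.0317 by descriptions). The causes were not tested. Probes near background limit what can be measured of Krt31, Krt82, Krt26 and Krt72.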
